A study of Mus musculus with 8 samples.

Results

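Genes of lung and other epithelia were followed in cultures of mouse bone marrow stromal cells, a mesenchymal cell type. The 35 genes comprise surfactant and alveolar genes, airway secretory genes, transcription factors of epithelia, and keratins, claudins and other epithelial surface genes. The genes were chosen by their log2 intensities on these same arrays, on which the culture kept in microgravity in osteoinductive medium stood apart. That array against the rest is therefore given below as a description, without a test, and tests were made only over the other 7 arrays. All 35 were measured, out of 19938 genes that had a probe set annotated to them alone.

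The study asked how microgravity affects marrow stromal cells grown on a Skelite scaffold, a mineral carrier for bone-forming cells, in growth or osteoinductive medium. Marrow was flushed from the femurs and tibiae of C57BL/6 mice aged 6 to 8 weeks, and the adherent cells were expanded for 1 passage before seeding. Each medium had 4 arrays, and each combination of medium and condition had 1. Laboratory cultures were kept in multi-well dishes and ground cultures in manually operated hardware on Earth. Microgravity cultures flew in automated hardware in the KUBIK incubator, and centrifuge cultures flew in the same incubator on a 1 g centrifuge. All 8 cultures thus shared the strain, cell source and scaffold, and flight and ground-based cultures differed in hardware as well as in gravity. The labels do not state the composition of the osteoinductive medium or the number of mice behind each culture. The gravity label of both centrifuge samples reads microgravity, and 1 description puts the osteoinductive centrifuge culture in growth medium. Groups here follow the titles. Nothing in the labels ties an array to a separate animal. The spread that p-values rest on is that of these arrays alone and may be technical in part. It also includes differences between conditions that were counted as repeats.

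Alveolar type II cells make surfactant, a film of lipid and protein that keeps air spaces open, and store it in lamellar bodies. Alveolar type I cells form the thin gas exchange surface, and airway secretory (club) cells secrete uteroglobin-family proteins and carry out xenobiotic metabolism. Claudins, keratins of simple epithelia and E-cadherin hold such sheets together, whereas stromal cells of the marrow normally form no epithelium.

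Values are log2 of the deposited intensity, and a difference of 1 on this scale is a 2-fold change. Median intensities of the 8 arrays lay between 180.9 and 196.4. The cultures carried strong stromal signal on every array: Col1a1, a chain of type I collagen, lay between 12.56 and 12.77, and Col1a2, the other chain, between 12.91 and 13.34. Of the 35 epithelial genes, 24 averaged above 7.14, a level that 40% of all probe sets did not reach, and 5 lay below it on every array. At the low end a difference in log2 intensity can understate a change, because background can remain in the values of dim probes. How far it did so here was not tested. In RNA from whole cultures, fewer cells of a type and less RNA per cell cannot be told apart.

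Of the 35 genes, 30 had their highest value on the osteoinductive microgravity array, against 11.3% of all genes. A subset of 12, or 34.3%, lay there more than 2-fold above every other array, which 0.236% of all genes did. No gene of the 19938 lay more than 2-fold below every other array. The difference between this array and the mean of the other 7 ran from -0.41 for Etv5 to 4.64 for Sftpc, with a median of 0.90 over the 35 genes and -0.01 over all genes. The mean log2 intensity of the 35 genes was 8.74 on this array and 7.25 to 7.74 on the others. These counts describe the pattern by which the genes were chosen. Just past the 2-fold line were Sftpd, Ager and Lamp3, 1.09, 1.08 and 1.01 above the next highest array, and just short of it were Clic5 at 0.94 and Rtkn2 and Cyp2f2, each at 0.79.

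**Figure D1:**
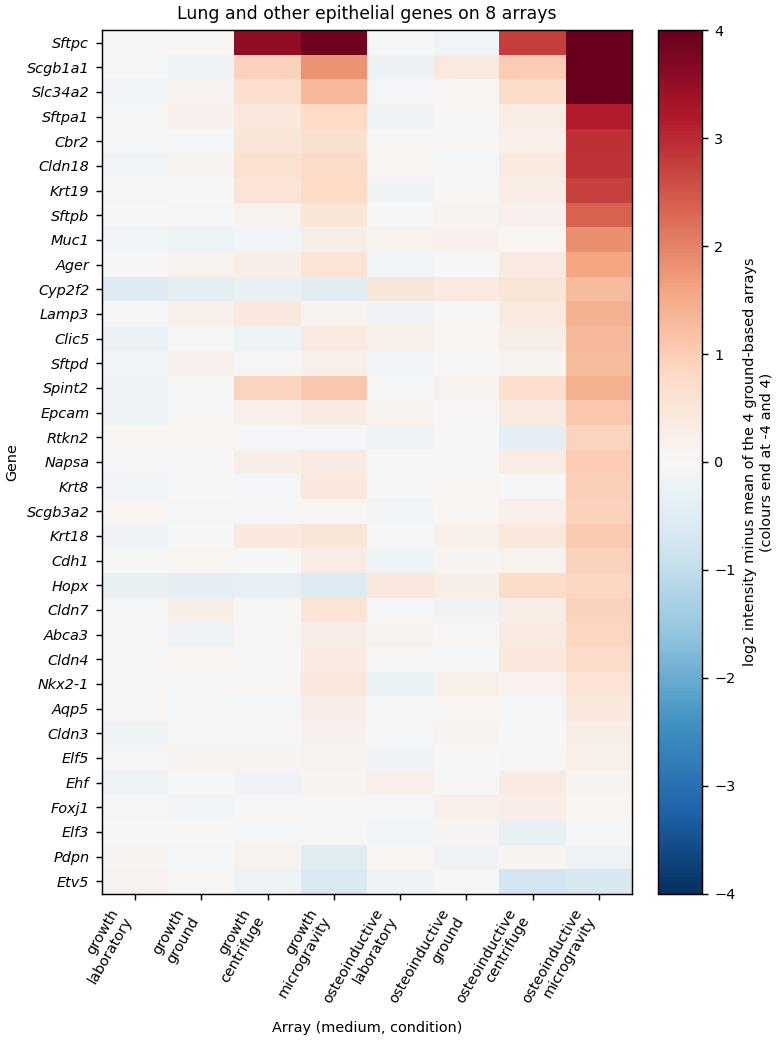
Difference of each of the 35 genes (rows) on each of the 8 arrays (columns) from its mean over the 4 ground-based arrays (log2 intensity), where red is higher and blue lower. The osteoinductive microgravity column is the highest for 30 of the 35 genes, and Sftpc is also raised on the other 3 flight arrays.

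The 8 alveolar type II genes were all highest on the osteoinductive microgravity array, 6 of them by more than 2-fold, and their median difference from the mean of the other arrays was 1.77. Values follow in the order laboratory, ground, centrifuge and microgravity. Sftpc, the hydrophobic surfactant protein made only by type II cells in the adult lung, had log2 intensities of 6.75, 6.78, 10.27 and 10.57 in growth medium and 6.75, 6.61, 9.50 and 12.81 in osteoinductive medium. Its 4 ground-based values spanned 6.61 to 6.78, and the lowest of its 4 flight values was 9.50, so the groups did not overlap.

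Slc34a2, the sodium-phosphate cotransporter of the type II cell surface, read 6.50, 6.72, 7.28 and 7.94 in growth medium. In osteoinductive medium it read 6.55, 6.71, 7.35 and 10.80. Its osteoinductive microgravity value was 7.26-fold above the next highest array, which was growth microgravity, and the 2 centrifuge arrays lay between ground-based and microgravity. Sftpa1, a collectin that binds microbes in the surfactant film, read 7.85, 8.03, 8.28 and 8.65 in growth medium and 7.72, 7.85, 8.16 and 11.01 in osteoinductive medium. In growth medium its flight values lay somewhat above the ground-based ones, whereas the osteoinductive microgravity value was 5.12-fold above any other.

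Sftpb, the hydrophobic protein needed to spread the surfactant film, read 7.48, 7.42, 7.63 and 7.98 in growth medium and 7.49, 7.62, 7.68 and 9.86 in osteoinductive medium. Apart from that last array no value exceeded 7.98. Sftpd, the second surfactant collectin, had 8.55 on the osteoinductive microgravity array and 7.15 to 7.46 elsewhere, with a median of 7.32. Lamp3, a membrane protein of lamellar bodies, had 6.94 there and 5.38 to 5.94 elsewhere. Napsa, the protease that processes surfactant proteins, and Abca3, the lipid pump of the lamellar body, were less than 2-fold above the next highest array, by 0.70 and 0.49.

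The starts of 3 of these genes are shown because their transcripts moved together on the osteoinductive microgravity array and because NKX2-1, the lung and thyroid regulator among the 35 genes, is known to act on surfactant promoters. Each is 300 bases from RefSeq, build GRCm38.p6, from 250 before to 50 after the transcript start, with capitals for matches to CTCAAG, the NKX2-1 core, and TTGCGCAA, a C/EBP palindrome. Sftpa1 lies at chr14:41131538-41131837, Sftpb at chr6:72304360-72304659 and Slc34a2 at chr5:53049103-53049402, all on the plus strand.
Sftpa1: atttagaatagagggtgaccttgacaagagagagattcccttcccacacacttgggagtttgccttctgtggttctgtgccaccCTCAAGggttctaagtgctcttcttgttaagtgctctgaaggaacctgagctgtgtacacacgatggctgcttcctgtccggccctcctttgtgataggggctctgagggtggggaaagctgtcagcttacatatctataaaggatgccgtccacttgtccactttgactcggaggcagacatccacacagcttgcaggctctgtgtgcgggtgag
Sftpb: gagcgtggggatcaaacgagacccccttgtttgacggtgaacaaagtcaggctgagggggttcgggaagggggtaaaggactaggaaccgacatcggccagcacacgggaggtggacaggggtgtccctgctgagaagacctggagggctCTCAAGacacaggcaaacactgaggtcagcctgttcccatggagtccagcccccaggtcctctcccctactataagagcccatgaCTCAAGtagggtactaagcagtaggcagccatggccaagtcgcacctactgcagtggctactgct
Slc34a2: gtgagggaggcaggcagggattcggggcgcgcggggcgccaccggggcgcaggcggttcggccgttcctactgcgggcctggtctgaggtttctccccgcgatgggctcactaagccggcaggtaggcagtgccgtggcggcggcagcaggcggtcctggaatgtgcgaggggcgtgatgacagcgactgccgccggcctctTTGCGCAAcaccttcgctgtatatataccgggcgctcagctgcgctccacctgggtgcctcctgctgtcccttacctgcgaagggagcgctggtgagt
Sftpa1 has the motif at -166 and Sftpb at -100 and -15 from the start, and these letters are not in the Slc34a2 window on either strand. Slc34a2 holds TTGCGCAA at -48, letters that were added to the search after its sequence was seen and that stand in 0.183% of all windows. RefSeq promoter entries matched 25 of the 35 genes, in 30 windows. CTCAAG on either strand was in 16.7% of those windows and in 15.9% of all 32851 promoter windows of the same length, so the share was near the background. The forkhead core TGTTTAC was in 10% against 3.65%, which rests on the 3 genes Etv5, Lamp3 and Pdpn. The ETS core GGAAGT was in 20% against 23.8%, and a second C/EBP pattern, TTGCNNCAA, was in 0 of 30 windows against 2.08% of all. That pattern is longer than the palindrome TTGCGCAA and cannot match it, so it does not count relaxed forms of the palindrome. None of the 5 motifs contains another, both strands were read for each, and a match is a description of the sequence only.

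The 4 airway secretory genes were all highest on the osteoinductive microgravity array, 2 of them by more than 2-fold, with a median difference of 2.01. Scgb1a1, the club cell secretory protein, read 5.03, 4.93, 5.97 and 6.85 in growth medium and 4.82, 5.44, 6.08 and 9.61 in osteoinductive medium. The other flight arrays lay above all 4 ground-based arrays, and the osteoinductive microgravity array lay 6.81-fold above the highest of them. Cbr2, a carbonyl reductase abundant in club cells, read 7.40, 7.35, 7.89 and 8.05 in growth medium and 7.45, 7.48, 7.61 and 10.33 in osteoinductive medium. Only the last of these exceeded 8.05. Scgb3a2, a second secretoglobin, had 6.60 on that array and 5.56 to 5.89 elsewhere.

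Cyp2f2, the club cell cytochrome that activates naphthalene, followed the medium. It read 7.47, 7.63, 7.69 and 7.57 in growth medium and 8.46, 8.36, 8.45 and 9.25 in osteoinductive medium. Each osteoinductive array exceeded each growth array.

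Among 6 genes of alveolar type I cells, 5 were highest on the osteoinductive microgravity array and 1 of these, Ager, passed 2-fold over every other array. Ager, the receptor for advanced glycation end products, read 8.30, 8.44, 8.53 and 8.81 in growth medium and 8.21, 8.28, 8.68 and 9.89 in osteoinductive medium. Clic5, a chloride intracellular channel protein, had 8.36 on that array and 6.83 to 7.43 elsewhere. Aqp5, a water channel, exceeded its next highest array by 0.15 only.

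Hopx, a homeodomain cofactor of type I cells, was ordered by medium, with 8.06, 7.96, 8.02 and 7.83 in growth medium against 8.82, 8.59, 9.09 and 9.17 in osteoinductive medium. Pdpn, podoplanin, which many stromal cells also make, was strong on every array, between 10.20 and 10.82. Its osteoinductive microgravity value of 10.47 lay within that range, and its lowest value was on the growth microgravity array.

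The transcription factors did not stand apart on the osteoinductive microgravity array. Of 6, 2 had their highest value there, none by more than 0.14, and their median difference from the other arrays was 0.04. Nkx2-1 read 7.42, 7.41, 7.43 and 7.79 in growth medium and 7.13, 7.57, 7.52 and 7.93 in osteoinductive medium. Both microgravity arrays were above the other 6, within a range of 0.80 in all. Foxj1, the regulator of motile cilia, spanned 6.76 to 7.13 and Elf3, an ETS factor of epithelia, 6.80 to 7.22. Elf5 spanned 6.54 to 6.88 and Ehf 6.42 to 6.93, both again epithelial ETS factors. Etv5, an ETS factor downstream of fibroblast growth factor signalling that maintains type II cells, was the member with the lowest difference. It read 9.95, 9.86, 9.60 and 9.20 in growth medium and 9.66, 9.74, 9.04 and 9.16 in osteoinductive medium, so that all flight arrays lay below all ground-based arrays.

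All 11 keratin, junction and surface genes were highest on the osteoinductive microgravity array, 3 of them by more than 2-fold. Cldn18, the tight junction claudin of alveolar epithelium and stomach, read 6.96 to 7.18 on the 4 ground-based arrays of both media, 7.68 and 7.85 on the growth centrifuge and microgravity arrays, and 7.47 and 9.97 on the osteoinductive ones. Krt19, a keratin of simple epithelia, read 6.84, 6.80, 7.31 and 7.57 in growth medium and 6.63, 6.87, 7.04 and 9.51 in osteoinductive medium. For both, the other 3 flight arrays lay above every ground-based array and the osteoinductive microgravity array lay far above those, 4.34-fold and 3.85-fold over the next highest. Muc1, a surface mucin, had 8.87 on that array and 6.79 to 7.23 elsewhere.

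The other keratin, junction and surface genes differed less. Cdh1, which encodes E-cadherin, had 8.16 on the osteoinductive microgravity array and 7.08 to 7.55 elsewhere, and Epcam, an epithelial adhesion molecule, 7.65 against 6.39 to 6.92. Krt8 and Krt18, which pair into filaments, exceeded their next highest arrays by 0.52 and 0.59. The claudins Cldn7, Cldn4 and Cldn3 did so by 0.37, 0.30 and 0.09. Spint2, an inhibitor of epithelial serine proteases, read 7.36, 7.51, 8.40 and 8.59 in growth medium and 7.54, 7.67, 8.20 and 8.93 in osteoinductive medium, which separated flight from ground-based arrays more than it separated the last array from the rest.

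**Figure D2:**
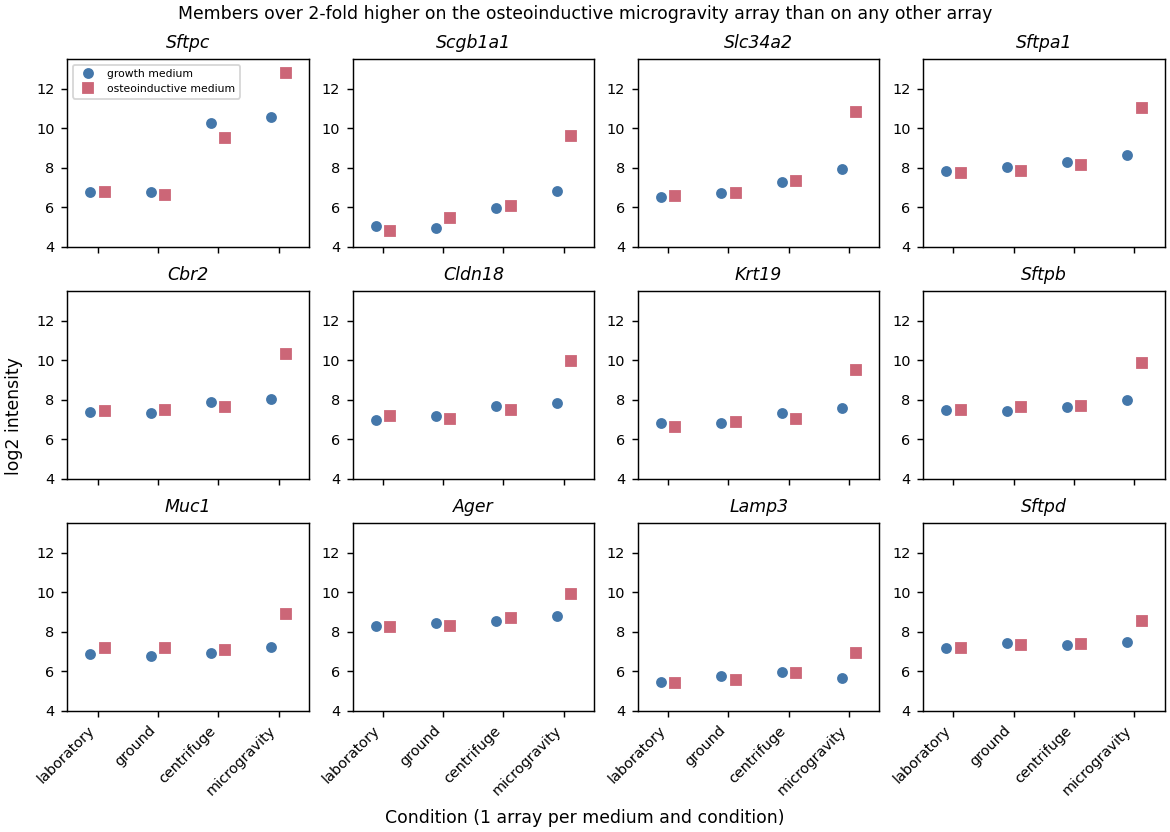
Log2 intensity of the 12 genes that lay more than 2-fold above every other array on the osteoinductive microgravity array, by condition, with 1 point per array for each medium and no error bar because each combination has 1 array. The osteoinductive microgravity point is alone at the top of each panel, by the choice of the 12, and for Sftpc all flight arrays lie at 9.50 or above while ground-based arrays lie at 6.78 or below.

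Within each medium, microgravity was set against the centrifuge of the same incubator, with 1 array on each side and no test. In osteoinductive medium, where the genes were chosen, 14 of 35 lay more than 2-fold higher in microgravity, which 0.461% of all genes did, and none lay more than 2-fold lower, which 0.0401% did. The median difference was 0.73. Scgb1a1 had the highest difference, 3.53, followed by Slc34a2 with 3.45 and Sftpc with 3.31. In growth medium none of the 35 passed 2-fold in either direction, where 0.0903% of all genes were higher and 0.0251% lower, and the median was 0.20. In that medium 29 of the 35 differences were above 0, or 82.9%, against 48.3% of all genes. The highest there were again Scgb1a1 with 0.88 and Slc34a2 with 0.65, followed by Clic5 with 0.53. Sftpc differed by 0.30 in growth medium and Lamp3 by -0.31, and the lowest value was that of Pdpn with -0.62. The difference was greater in osteoinductive than in growth medium for 32 of the 35. Without the osteoinductive microgravity array, growth microgravity was the highest of the 7 arrays for 22 of the 35 genes, or 62.9%, against 21.7% of all genes. Neither share was particular to the 35 genes among the marker lists read further below. Growth-medium differences were above 0 for 84.6% of liver, 81.8% of kidney tubule and 91.7% of neuronal genes, but for 41.7% of intestinal and 25% of macrophage genes. Growth microgravity was highest of the 7 arrays for 11 of 12 neuronal and 5 of 8 skin genes, but for 2 of 12 intestinal and 1 of 8 pancreatic genes.

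**Figure D3:**
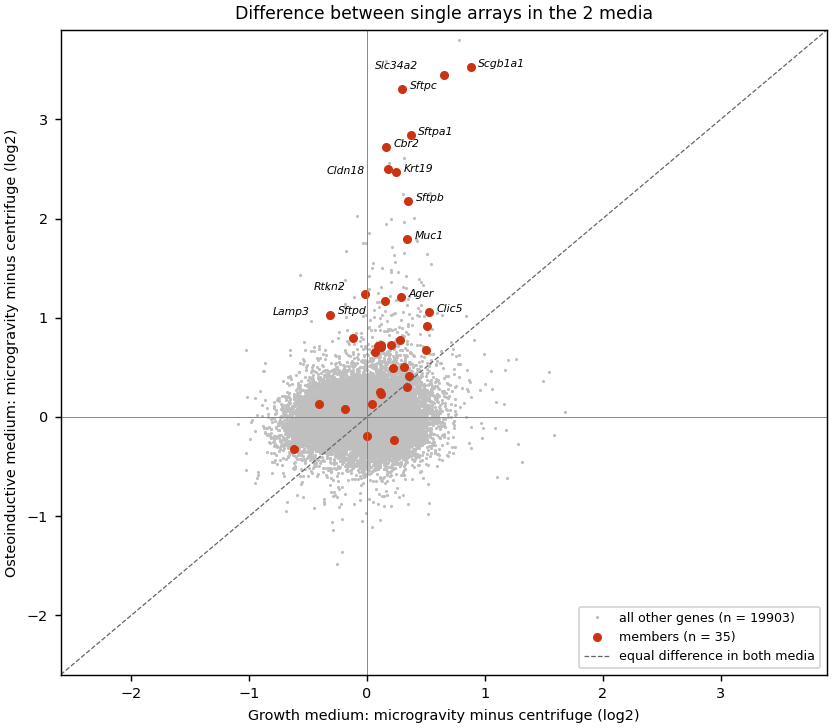
Microgravity minus centrifuge in log2 intensity, in growth medium (horizontal axis) and osteoinductive medium (vertical axis), with 1 point per gene and 1 array behind each side of a difference. Most of the 35 genes (large points) lie above the dashed line of equal difference, up to 3.53 in osteoinductive medium, and none passes 1 in growth medium.

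The 3 flight arrays other than osteoinductive microgravity were compared with the 4 ground-based arrays in a limma fit with medium as a covariate over all 19938 genes. In flight 12 of the 35 genes rose at an adjusted p of 0.05, or 34.3%, against 9.8% of all genes, and Etv5 fell, against 11.2% of all genes. The genes were chosen with values of all 8 arrays in view, so these shares are not independent of the choice. The median difference was 0.19 over the 35 genes and -0.02 over all genes, and 31 of 35 differences were positive. For 13 of them, or 37.1%, all 3 flight arrays lay above all 4 ground-based arrays, as they did for 13% of all genes, and for Etv5 all 3 lay below, as for 13% of all genes. Without the growth laboratory array 7 of the 35 genes rose in place of 12. Centrifuge and microgravity arrays counted as repeats in this fit, as did laboratory and ground arrays, although they are different conditions.

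Sftpc rose 9.98-fold, by 3.32 with a standard error of 0.16 (limma, adjusted p = 1.21e-07). Scgb1a1 rose 2.36-fold, by 1.24 ± 0.20 (SE, limma, adjusted p = 0.00126), and Slc34a2 1.85-fold, by 0.89 ± 0.15 (SE, adjusted p = 0.0013). Spint2 rose 1.83-fold (limma, adjusted p = 0.00028) and Cldn18 1.49-fold (adjusted p = 0.00324). Among the keratins, Krt18 and Krt19 rose by 0.45 and 0.49, each with limma's adjusted p under the threshold at 0.00802 and 0.00946. These 7 genes passed in each of the 7 fits that left out 1 array, and the difference of Sftpc then ran from 3.16 to 3.65.

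The other rises were smaller and less stable. Sftpa1 rose by 0.47 ± 0.11 (SE, limma, adjusted p = 0.0115) but did not pass without the growth laboratory array, where the adjusted p was 0.0599. Cbr2 rose by 0.42 (limma, adjusted p = 0.0202) and did not pass without growth laboratory, growth ground or growth microgravity, with adjusted p of 0.0627 to 0.0839. Ager rose by 0.35 (limma, adjusted p = 0.0289) and passed only without growth ground or without growth centrifuge, with adjusted p of 0.06 to 0.198 in the other 5 such fits. Napsa and Epcam rose by 0.30 and 0.32 (limma, adjusted p = 0.0288 and 0.0318) and each passed only in the fit without growth centrifuge, with adjusted p of 0.0593 to 0.129 and 0.053 to 0.155 in the other 6. Etv5 fell by 0.57 ± 0.11 (SE, limma, adjusted p = 0.004), and the adjusted p was 0.0563 without the osteoinductive centrifuge array. With the osteoinductive microgravity array added, the differences of Sftpa1, Krt19 and Cbr2 were larger, 1.17, 1.07 and 1.05, but none of these passed. That of Abca3 was 0.38 in the same fit and passed. The genes were chosen by their values on that array, so the fit with it is no test of them.

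The other 22 genes had flight differences between -0.22 and 0.29 that did not pass. Among them were the keratin Krt8, at 0.11 ± 0.13 (SE, limma, adjusted p = 0.557), and Nkx2-1, at 0.19 ± 0.12 (adjusted p = 0.31). Sftpb, at 0.27 ± 0.11 (SE, limma, adjusted p = 0.102), and Sftpd, at 0.11 ± 0.10 (adjusted p = 0.489), did not pass either. The 22 therefore include surfactant genes that lay more than 2-fold above every other array on the osteoinductive microgravity array.

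**Figure D4:**
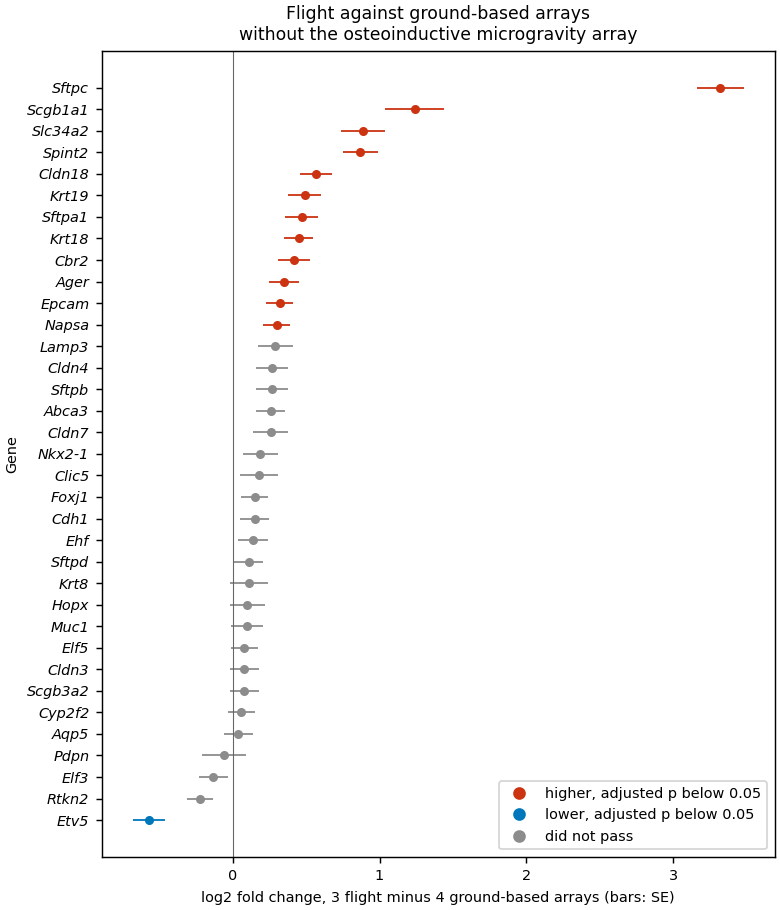
Flight (3 arrays, without osteoinductive microgravity) minus ground-based (4 arrays) in log2 intensity for each of the 35 genes, with bars for the standard error from the limma fit, and red points for genes higher and a blue point for the gene lower at adjusted p under 0.05. Sftpc at 3.32 lies far from the rest, 12 genes are called higher and Etv5 is the gene called lower.

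Medium was compared over the same 7 arrays, with flight as a covariate. Cyp2f2 rose 1.79-fold in osteoinductive medium, by 0.84 ± 0.09 (SE, limma, adjusted p = 0.000342), and Hopx 1.85-fold, by 0.89 ± 0.12 (SE, adjusted p = 0.00137). Both passed in each fit that left out 1 array. They are 2 of the 35 genes, against 2.69% of all genes that rose. None of the 35 fell at limma's adjusted p, although 3 had a negative difference at an unadjusted p under 0.05, and 2.18% of all genes fell. The other 33 differences lay between -0.42 and 0.26.

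Lists of marker genes, from which the 35 were removed, were read on the same arrays for related cell types. The lists were chosen with earlier results of these arrays known, so they are no independent support. On the osteoinductive microgravity array 10 of 17 further type II genes were highest and 2 were more than 2-fold above every other array, Lyz1 and Cxcl15. Of 11 further type I genes 8 were highest and 3 passed that line, Krt7, Gprc5a and Scnn1g. Of 13 further airway secretory genes 4 were highest and Reg3g and Sec14l3 passed it. Ciliated cell genes gave 3 of 14 and none past the line, with a median difference of 0.07. Further general epithelial genes gave 17 of 29 and none, with a median of 0.21, and further lung epithelial regulators 3 of 11 and none, with a median of 0.13. The share of highest values over all genes was 11.3%.

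For lists of epithelia outside the lung, the median difference on this array was -0.07 for 12 intestinal genes, 0.08 for 11 kidney tubule genes, -0.12 for 8 pancreatic genes and 0.08 for 7 thyroid genes. It was 0.12 for 8 skin genes and -0.02 for 6 mammary genes. The 10 genes of mesothelium, the lining of body cavities, had a median of 0.39, but 0.09 against the osteoinductive centrifuge array alone. Among them Msln, mesothelin, read 9.15 against 7.74 to 8.13, 2.04-fold above the next highest array. Among 13 liver genes only Alb, albumin, passed 2-fold, with 7.58 against 5.92 to 6.37. The lists of endothelium and lung mesenchyme were also high on this array. All 15 endothelial genes were highest on this array, with a mean log2 intensity of 8.46 against 7.07 to 7.74 and a median difference of 1.05, led by Ramp2, a receptor partner of vessel linings, at 10.06 against 7.35 to 8.85. Ramp2 and Pecam1, an adhesion molecule, passed 2-fold over every other array. Of 10 lung mesenchyme genes 9 were highest and 4 passed 2-fold (Inmt, Limch1, Npnt and Tcf21), with a mean of 8.21 against 7.14 to 7.46. Skeletal muscle and neuronal genes, 12 of each, had median differences of 0.76 and 0.57, but 0.17 and 0.13 against the osteoinductive centrifuge array alone. In these lists 3 muscle genes and 0 neuronal genes were highest on this array, and none passed 2-fold over every other array. The 8 macrophage genes had a median difference of -0.02, and 17 genes of marrow stroma and osteoblasts had a mean of 9.26 against 8.90 to 9.14. The part of other cell types in the values of the 35 genes was not tested.

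Other marker lists moved with flight as well. In limma's fit of flight minus ground-based arrays without osteoinductive microgravity, 11 of 12 neuronal genes rose, with a median of 1.53, and 8 of 12 skeletal muscle genes, with a median of 0.61. Of 15 endothelial genes 11 rose, with a median of 0.44. Stmn2, a microtubule regulator of neurons, rose by 4.27 (limma, adjusted p = 1.57e-10), and its value on the osteoinductive microgravity array, 11.13, was below its highest on another array, 11.44. The osteoinductive microgravity array was highest for 30 of the 35 epithelial genes, which were chosen by that pattern. It was highest for 0 of 12 neuronal, 3 of 12 skeletal muscle and 15 of 15 endothelial genes. The part of these cell types in the flight differences of Sftpc, Scgb1a1 and the other epithelial genes was not tested.

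**Figure D5:**
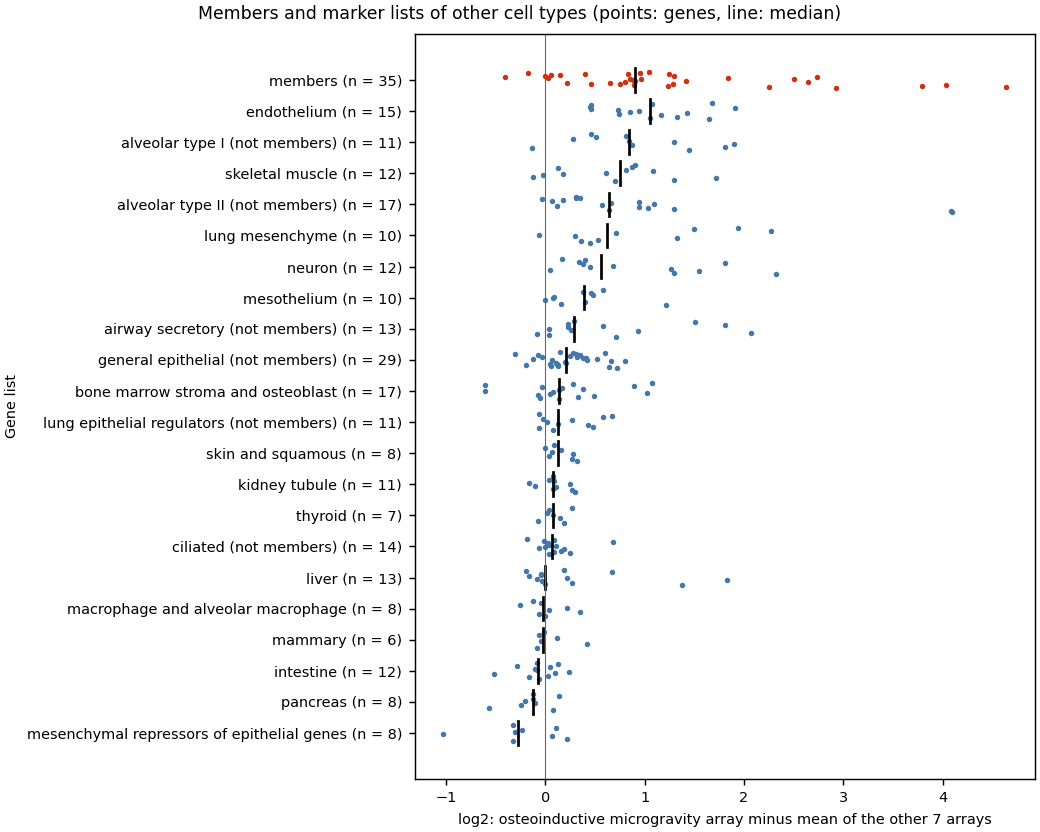
Osteoinductive microgravity array minus the mean of the other 7 arrays in log2 intensity for the 35 genes and for marker lists of other cell types, with 1 point per gene and a line at each list's median. The 35 genes have a median of 0.90 and endothelial genes 1.05, whereas intestinal, pancreatic and macrophage genes lie around 0.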

How the data were processed

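RNA of 8 cultures was hybridised to Affymetrix arrays, 1 array each. The authors deposited a linear intensity for each probe set. RMA and GCRMA are both named in the submitters' processing notes, with no statement of which was used. The arrays' genome build was not given in the sources used here. Background handling in such methods can compress differences of dim probe sets.

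Log2 was taken with no further normalization. Of 35557 probe sets, 21789 were annotated to 1 gene, 1621 to several and 12147 were unnamed, and only the first kind was used. The probe set with the highest mean stood for each of 19938 genes, which mattered for 1 of the 35 (Etv5). Of the identifiers 21698 matched RefSeq, and 0 symbols changed. No brightness filter was applied.

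Flight and medium effects were fitted with limma 3.58.1 (lmFit, eBayes) in R 4.3.3 over 7 arrays, with 4 residual degrees of freedom, two-sided, with Benjamini-Hochberg adjustment over all genes within each comparison and a threshold of 0.05. The array number limits precision. The fit was tested on simulated data. Tables were made with Python 3.11.15.

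The genes, lists and tests were chosen with earlier results of these data known. Named genes were the 35, the 12 other genes furthest above and the 6 furthest below the other arrays on the osteoinductive microgravity array (predicted genes left out), and examples from the lists, furthest from 0 on that array first. Ramp2 and Stmn2 lead their lists by that rule, and Col1a1 and Col1a2 were named to show the stroma. Of the 21 lists, genes without a probe set of their own were not analysed here. The list of mesenchymal repressors of epithelial genes also held Cdh2 and Vim, which are not repressors themselves. Its median on the osteoinductive microgravity array was -0.27 against the mean of the others and -0.02 against the osteoinductive centrifuge array. Its median flight difference without the osteoinductive microgravity array was -0.22. Alternatives were quantile normalization, 32 added before log2, a brightness filter, the mean over probe sets, all 8 arrays, no covariate, condition as a block (added after seeing the data), and leaving out each array.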

Additional observations from a re-analysis of the deposited data

Results flagged for a closer look

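Each of the 35 genes had a flight group and a ground-based group, of 4 arrays each. Across all these groups, 10 values lay apart from the other 3 on their side by Dixon's criterion, which chance meets in about 1 group in 20. The osteoinductive microgravity array was the high one in 7: Sftpa1 at 11.01, Sftpb at 9.86, Sftpd at 8.55, Cldn18 at 9.97, Napsa at 7.93, Krt18 at 8.41 and Cbr2 at 10.33. These genes were chosen for their values on that array, so their place here adds no support. Foxj1 was high on the osteoinductive centrifuge array, at 7.13, by 0.19 over the next flight array. Among ground-based arrays Sftpc was low on the osteoinductive ground array, at 6.61, and Napsa on the growth laboratory array, at 6.83, by 0.14 and 0.09. Each side mixes media and conditions, so a value that stands apart need not be an outlying replicate.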

How the results depend on the processing

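The labels give no replicate numbers, so no replicate pairing was made. Pairing the media by condition, an alternative added after seeing the data, gave 563 genes that rose and 583 that fell in osteoinductive medium, with 2 and 0 of the 35 among them. No result reversed its direction. In the flight comparison the number of the 35 genes that rose ran from 7 to 16 when 1 array was left out, and of those that fell from 0 to 1. Quantile normalization gave 2 that fell. Over all genes, 1354 to 2657 rose and 566 to 4163 fell when 1 array was left out, and 1003 fell without the term for medium. In the medium comparison 163 to 615 genes rose and 23 to 776 fell when 1 array was left out. Without the term for flight 166 rose and 10 fell, and with all 8 arrays 811 fell. Napsa and Epcam did not pass after quantile normalization (limma, adjusted p = 0.087 and 0.0738), nor did Epcam without the term for medium (0.0803). The brightness filter left 24 of the 35 genes, of which 9 rose and 1 fell, so Scgb1a1, Napsa and Epcam were not tested there. With 32 added before log2, the difference of Lamp3 from the other arrays was 0.91 in place of 1.28 and that of Muc1 1.62 in place of 1.84. The count of 12 genes past 2-fold became 12 to 13 when 1 of the other arrays was left out. Dim genes limit what can be read, and the causes of these changes were not tested.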

Other observations

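Outside the 35 genes, 35 other genes lay more than 2-fold above every other array on the osteoinductive microgravity array. Lyz1, a lysozyme, had 11.59 there and 6.61 to 8.66 elsewhere. Cxcl15, a chemokine of lung epithelium, had 9.92 against 5.07 to 7.15, and Lyz2, the lysozyme of macrophages and type II cells, 9.72 against 7.43 to 7.80. The 2 lysozyme genes are close copies, and their probe sets may share signal. Eln, elastin, had 11.86 against 8.46 to 10.16, and Scn7a, a sodium channel family member, 8.86 against 5.32 to 6.60. Inmt, a methyltransferase abundant in lung stroma, had 8.69 against 6.06 to 6.92, and Cd93, a receptor of endothelial and myeloid cells, 8.64 against 5.88 to 7.01. Tspan8, Slc6a14, Reg3g, Cpm and Ces1d exceeded their next highest arrays by 1.97, 1.67, 1.63, 1.62 and 1.62. In the limma fit without that array, Lyz1 rose in flight by 1.47 (adjusted p = 3.34e-05) and Eln by 1.29 (adjusted p = 6.77e-06), while Lyz2 differed by 0.19 (adjusted p = 0.189).

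The genes furthest below every other array were Zfp442, Platr25, Clec5a, Klk1b24, Knstrn and Rbis, by 0.50 to 0.59. Knstrn, a protein of the mitotic spindle, had 7.27 against 7.78 to 9.17, and it fell in flight by 1.14 without that array (limma, adjusted p = 6.36e-05).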
